A study of Neurospora crassa with 18 samples.

Results

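Of the 9730 genes measured in Neurospora crassa mycelia, 98 were at least 2 times as high in WT with 3-AT as in WT without it, and under 1.3 times as high in the cpc-1KO strain with 3-AT as in the same strain without it. These 98 genes were chosen by their mean levels in the 4 groups of WT and cpc-1KO libraries grown in 2% glucose, with and without 3-AT. A gene also had to lie, with 3-AT, at or below 0.5 of WT in cpc-1KO, and, without 3-AT, above 0.5 of WT in cpc-1KO. It further needed a value above 0 in all 15 WT and cpc-1KO libraries and a mean of at least 10 over them, which 4074 genes had. Every difference among those 4 groups is therefore a description of how the genes were selected and carries no test.

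RNA-seq was run on mycelia grown at room temperature in constant light, in 18 libraries of 7 groups. With 5 mM 3-AT (3-amino-1,2,4-triazole) for 8 h in 2% glucose medium there were 3 libraries of cpc-1KO + cpc-1WT, 3 of cpc-1KO and 3 of WT. Medium of 0.1% glucose with 0.17% arginine gave 2 libraries of cpc-1KO and 2 of WT, and 2% glucose without 3-AT gave 2 of cpc-1KO and 3 of WT. WT is strain FGSC4200, cpc-1KO is a deletion of cpc-1, and cpc-1KO + cpc-1WT is the deletion strain with a tagged cpc-1 coding sequence of native codons, driven by the ccg-1 promoter and placed at the csr-1 locus, so it also lacks the native cpc-1 leader. No cpc-1KO + cpc-1WT library without 3-AT was analysed here, so what 3-AT did within that strain could not be compared. The study asked how the codons of cpc-1 bear on CPC-1 function, and the strains set amino acid starvation with and without the factor side by side. The labels do not say that replicates came from separate cultures, so p-values measure the spread between libraries, which may be technical. In bulk mycelia, fewer cells of a type and less RNA per cell cannot be told apart.

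CPC-1 is the Neurospora ortholog of yeast GCN4, a basic leucine zipper activator that raises transcription of amino acid synthesis genes across many pathways when any one amino acid runs short, which is known as cross-pathway control. 3-AT blocks an enzyme of histidine synthesis and is the usual way to bring on that state. In yeast the same factor also reaches genes of purine synthesis, tRNA charging and cofactor supply, so its targets are wider than the amino acid pathways themselves.

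Levels are given as scaled RPKM, the deposited values of read density (reads per kilobase of transcript, relative to all reads of the library) summed over the transcripts of a gene and divided by 1 factor per library. The factors lay between 0.663 and 0.703 in WT with 3-AT, between 0.931 and 0.977 in cpc-1KO with 3-AT and between 1.11 and 1.12 in cpc-1KO + cpc-1WT with 3-AT. Replicates had Spearman correlations across genes of 0.940 to 0.972, and no library stood apart from its group. Read depth is not given in the sources used here. The deleted gene followed the labels: cpc-1 had 60.6, 70.4 and 61.2 scaled RPKM in cpc-1KO + cpc-1WT, 2.25, 2.49 and 2.18 in cpc-1KO and 1666 on average in WT, all with 3-AT. The transgene strain thus held cpc-1 RNA above the deletion strain and far below WT, by a log2 difference of 4.30 ± 0.07 (SE, limma adjusted p = 1.7e-08) from cpc-1KO and -4.68 ± 0.07 (SE, limma adjusted p = 3.1e-09) from WT. For its own comparison of cpc-1 RNA the paper counted reads of the coding region alone. How far reads of the native leader, which the transgene lacks, add to the difference from WT here was not tested. Of 6 conidiation markers, con-6 was at 0 in all 9 libraries with 3-AT, and the sum of the 5 markers other than eas was 74.4 to 85.5 in cpc-1KO + cpc-1WT, 60.7 to 64.7 in cpc-1KO and 53.3 to 58.7 in WT with 3-AT. These markers did not move together. In that order of strains, con-8 had means of 58.2, 24.4 and 26.1. Means were 7.55, 15.2 and 6.28 for con-10, 14.2, 22.3 and 23.25 for fl, and 0.298, 0.318 and 0.349 for con-13. The hydrophobin gene eas, part of the spore coat, went with the strains: 612 to 651 in cpc-1KO + cpc-1WT, 0, 68.3 and 63.5 in cpc-1KO, and 3274 to 3423 in WT with 3-AT, against 596, 599.6 and 0 in WT without 3-AT. Its part in the results was not tested, and a lone 0 beside such values can be a failed estimate.

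The 98 genes took a wide range of levels. In WT with 3-AT their means ran from 8.63 to 696 scaled RPKM with a median of 72.2, and the ratio of WT with 3-AT to WT without it had a median of 2.45 and a maximum of 22.4. The ratio of cpc-1KO to WT with 3-AT lay between 0.0367 and 0.498, with a median of 0.286. In cpc-1KO the selection allowed a rise with 3-AT of under 1.3 times, set no limit on a fall and asked for low levels with 3-AT. It therefore favoured a fall, and 72 of the 98 genes had a lower mean with 3-AT than without it. The median ratio was 0.840, against 0.977 over the genes that met the level filter. Without 3-AT, 75 of the 98 were lower in cpc-1KO than in WT, with a median ratio of 0.825, against 0.970 over the genes that met the level filter. The selection did not use the 0.1% glucose or transgene libraries in its ratios. Across the 7 groups, the highest mean was in WT with 3-AT for 74 genes, in WT in 0.1% glucose for 21 and in cpc-1KO + cpc-1WT for 3, and in none was it a cpc-1KO group. The selection set WT with 3-AT above WT without it and above cpc-1KO with 3-AT, so these counts are a description. Their shares over all genes were not computed. Of the 21, 10 met the level filter only through the 0.1% glucose libraries in which they were high, so 11 of the other 88 members had their highest mean there.

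**Figure D1:**
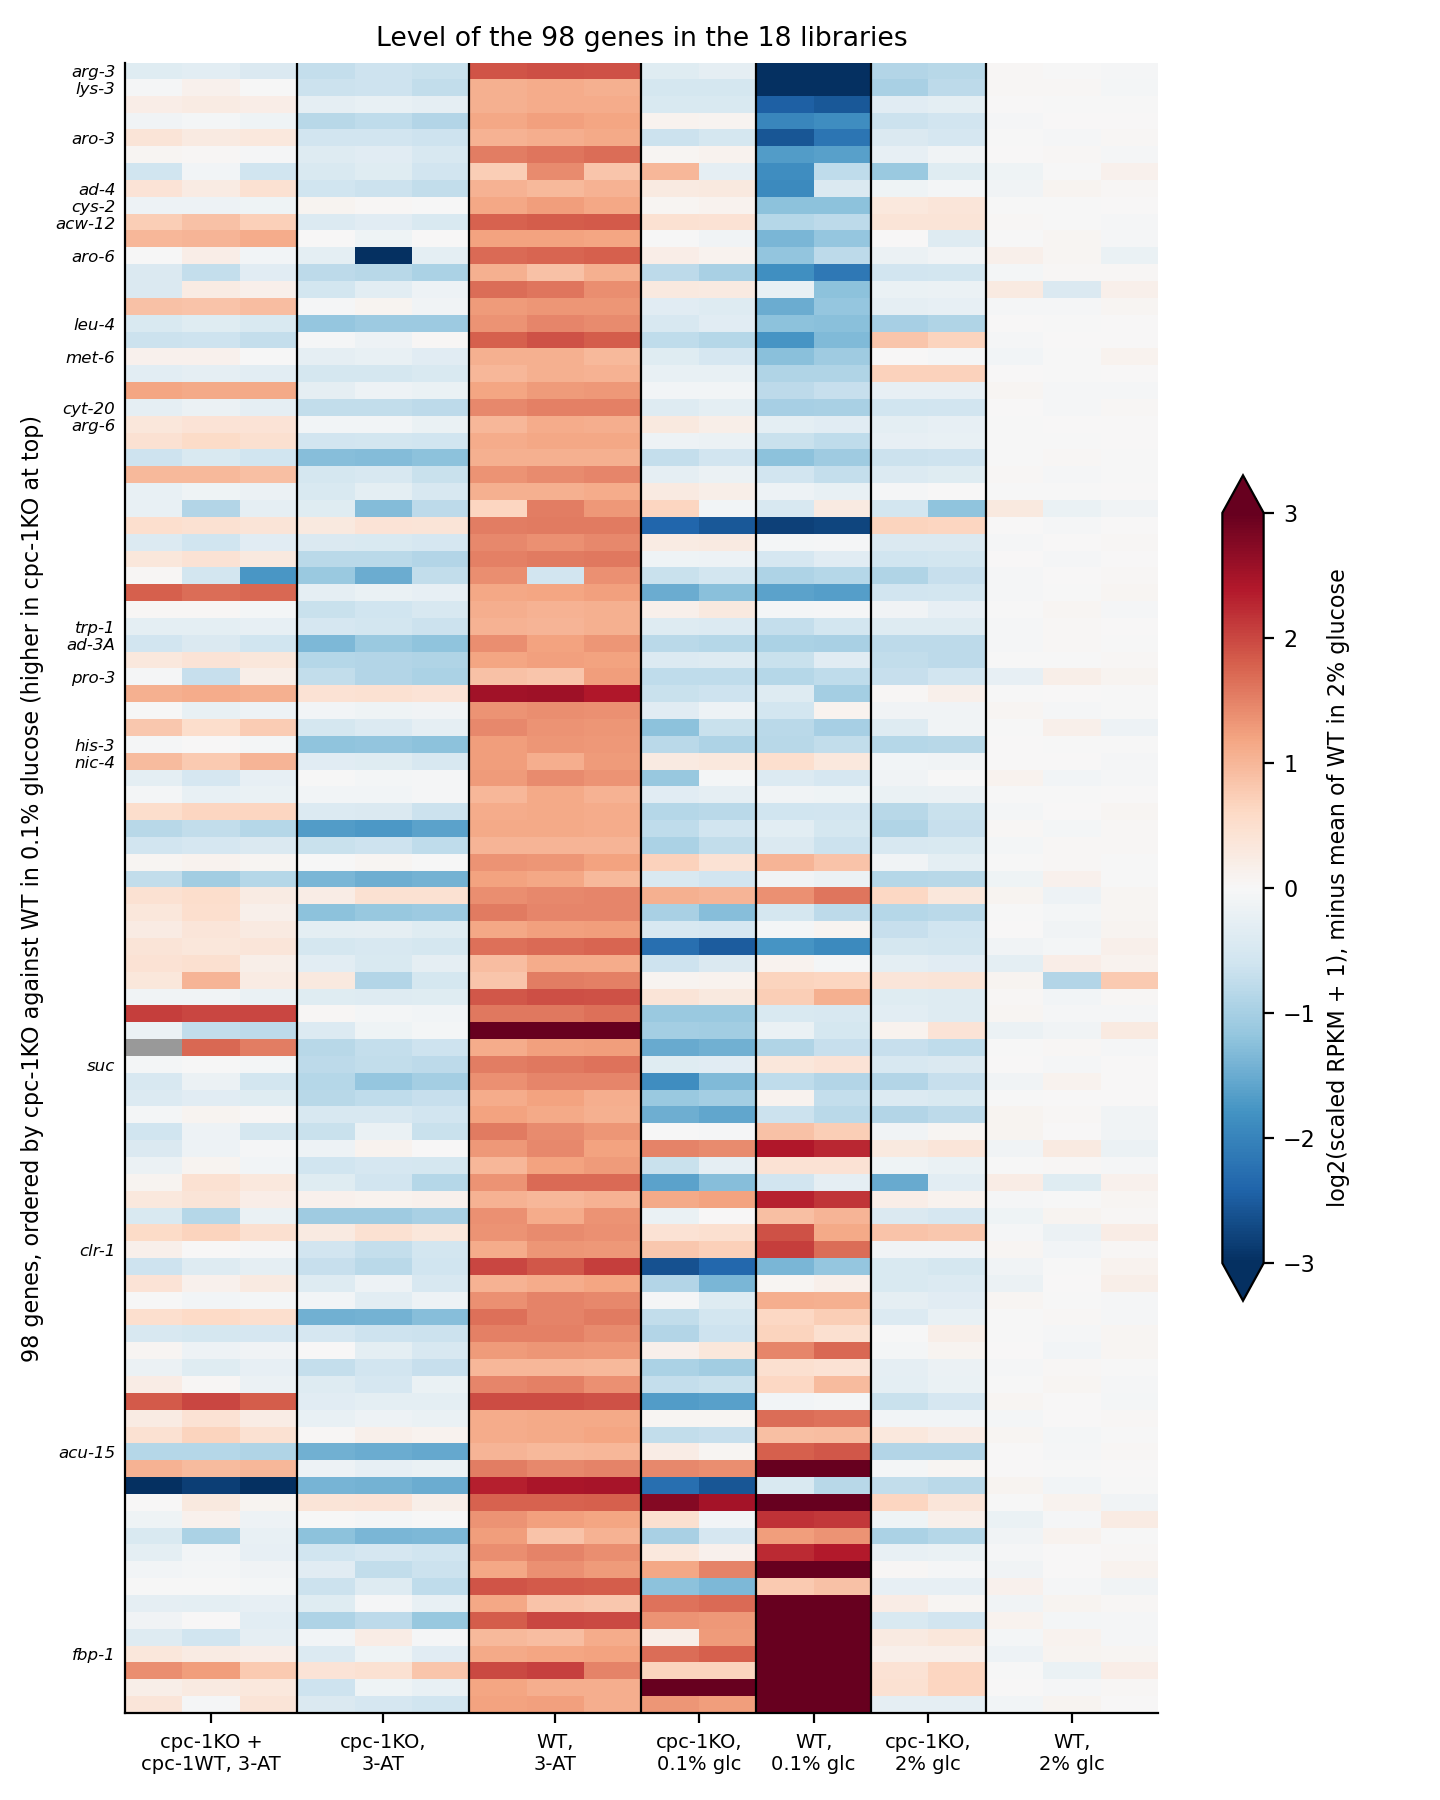
Heat map of the 98 genes (rows) in the 18 libraries (columns, grouped; glc, glucose), coloured by log2(scaled RPKM + 1) minus the mean of WT in 2% glucose, with colours ending at 3 in each direction and grey for the 1 value that was missing. The 3 WT libraries with 3-AT are red almost throughout, as selected, whereas the WT libraries in 0.1% glucose run between deep blue at the top, where arg-3 and lys-3 lie, and deep red at the bottom, where fbp-1 lies.

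Genes just inside and just outside the limits differed little. The ratio of WT with 3-AT to WT without it was 2.01 for NCU04256, a member, and 1.997 for NCU00405, which was left out. For cpc-1KO against WT with 3-AT it was 0.498 for NCU04383, inside, and 0.501 for NCU09532, outside, and for cpc-1KO with and without 3-AT it was 1.28 for NCU00068, inside, and 1.302 for NCU02724, outside. For cpc-1KO against WT without 3-AT, leu-4 at 0.509 and NCU04594 at 0.504 were inside and NCU08018 at 0.498 outside. On that last limit alone 62 genes were left out, which had at most 0.5 of the WT level in cpc-1KO before 3-AT was added. The limit on cpc-1KO against WT with 3-AT alone left out 23 genes, and 18 failed only because they were at least 1.3 times as high in cpc-1KO with 3-AT. On the level filter, NCU03427 lay inside with a mean of 10.1 and NCU06646 outside with 9.87, and 71 genes above 0 in all 15 libraries met every ratio but not this mean. The requirement of a value above 0 in every library also kept out 15 genes that met all ratios, among them the pyridoxine genes pdx-1 and pdx-2 and the branched-chain gene ilv-6, each listed at 0 in at least 1 library. With values as deposited, without the factors, 61 genes met the rule and 38 of them were among the 98.

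Gene symbols were found for 20 of the 98 genes in the RefSeq table of assembly NC12, and the other 78 are known here by locus tag. Among the 20, 11 belong to lists of amino acid synthesis genes: his-3, arg-3, arg-6, lys-3, leu-4, aro-3, aro-6, trp-1, met-6, cys-2 and pro-3. The remaining 9 are ad-3A and ad-4 of purine synthesis, nic-4, cyt-20, suc, fbp-1, acu-15, clr-1 and acw-12.

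For his-3, a multifunctional enzyme of histidine synthesis, the levels with 3-AT were 110.1, 114 and 108 in cpc-1KO + cpc-1WT, 48.3, 48.8 and 47.8 in cpc-1KO and 268, 282 and 281 in WT. The 3 strains did not overlap, and the transgene strain lay between the other two, at the level of WT without 3-AT (113, 112 and 113). Against cpc-1KO the transgene strain was higher by 1.18 ± 0.04 (SE, limma adjusted p = 1.1e-06) on the log2 scale. In this test, and in the same test of each member below, the cpc-1KO libraries took part in the selection, as low values.

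The gene arg-3, which codes for the large subunit of the carbamoyl phosphate synthetase of arginine synthesis, had the lowest ratio of cpc-1KO to WT with 3-AT among the amino acid members, at 0.164. It had 50.2, 51.7 and 47.9 in cpc-1KO + cpc-1WT, 39.3, 41.95 and 40.6 in cpc-1KO and 245, 252 and 245 in WT with 3-AT. The transgene libraries sat just above the cpc-1KO ones without overlap and far below every WT library. The log2 difference between cpc-1KO + cpc-1WT and cpc-1KO was 0.29 ± 0.05 (SE, limma adjusted p = 0.0032), and the transgene mean covered 4.5% of the distance between the cpc-1KO and WT means. In the NC12 annotation arg-3 overlaps NCU02678, and since the sources do not say whether reads were counted by strand, its values may hold reads of that gene.

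The second arginine gene, arg-6, whose protein carries out both the kinase and the reductase step after acetylglutamate, had 70.7, 73.5 and 73.8 in cpc-1KO + cpc-1WT, 52.02, 52.2 and 48.1 in cpc-1KO and 111, 121 and 119.7 in WT with 3-AT. Here the transgene strain covered 32.9% of the distance between cpc-1KO and WT. It was above cpc-1KO by 0.51 ± 0.05 (SE, limma adjusted p = 3.7e-04) and below WT by a log2 difference of -0.68 ± 0.05 (SE, limma adjusted p = 2.8e-05), a direction that turned to 0.017 with values as deposited.

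Lysine and leucine synthesis gave 1 member each. lys-3 had 43.6, 48.5 and 44.00 in cpc-1KO + cpc-1WT, 27.8, 28.6 and 26.1 in cpc-1KO and 94.2, 97.4 and 94.2 in WT with 3-AT. leu-4, the isopropylmalate synthase at the start of leucine synthesis, had 47.3, 50.8 and 46.9 in cpc-1KO + cpc-1WT, 28.6, 29.9 and 30.2 in cpc-1KO and 168, 183 and 175 in WT. No library of either gene overlapped with those of another strain, and both were higher in cpc-1KO + cpc-1WT than in cpc-1KO, lys-3 by 0.70 ± 0.06 (SE, limma adjusted p = 9.9e-05) and leu-4 by 0.69 ± 0.05 (SE, limma adjusted p = 6.5e-05).

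Of the aromatic pathway, aro-3, the chorismate synthase that ends the common trunk, was higher in the transgene strain by a larger margin: 106, 97.8 and 101 in cpc-1KO + cpc-1WT, 54.1, 53.6 and 51.8 in cpc-1KO and 169, 172 and 177 in WT with 3-AT, with a log2 difference of 0.92 ± 0.05 (SE, limma adjusted p = 7.5e-06) from cpc-1KO. trp-1, a multifunctional enzyme of tryptophan synthesis, had 29.5, 29.4 and 30.5 in cpc-1KO + cpc-1WT, 25.1, 24.5 and 22.7 in cpc-1KO and 74.98, 74.6 and 76.9 in WT and rose less, by 0.30 ± 0.05 (SE, limma adjusted p = 0.0036). For aro-6, a DAHP synthase at the entry to the pathway, 1 library decided the test. Its values were 61.2, 71.3 and 58.7 in cpc-1KO + cpc-1WT and 49.8, 5.16 and 50.2 in cpc-1KO, where replicate 2 lay far below the others, and 201, 208 and 215 in WT. The log2 difference from cpc-1KO was 1.36 ± 0.75 (SE, limma adjusted p = 0.24) with that library and 0.34 (limma adjusted p = 0.038) without it.

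The last 3 amino acid members serve methionine, cysteine and proline. met-6, the folylpolyglutamate synthetase needed for methionine, averaged 24.3 ± 1.32 in cpc-1KO + cpc-1WT, 18.8 ± 0.747 in cpc-1KO and 48.3 ± 1.74 in WT with 3-AT (SD, n = 3 each), and was above cpc-1KO by 0.36 ± 0.06 (SE, limma adjusted p = 0.003). cys-2, a gene of cysteine synthesis, went the other way, with 59.05, 59.6 and 60.3 in cpc-1KO + cpc-1WT, 69.7, 67.6 and 65.6 in cpc-1KO and 149, 159.5 and 149 in WT. All 3 transgene libraries of cys-2 lay below all 3 of cpc-1KO, and the log2 difference was -0.18 ± 0.05 (SE, limma adjusted p = 0.026), which turned to 0.051 with values as deposited and missed the threshold in 5 of the 6 fits with 1 library left out. pro-3 of proline synthesis had 19.2, 11.97 and 22.4 in cpc-1KO + cpc-1WT, 11.4, 10.3 and 9.70 in cpc-1KO and 37.4, 36.01 and 48.3 in WT, and at 0.68 ± 0.22 (SE, limma adjusted p = 0.055) did not pass the test between the first pair. Both met-6 and pro-3 overlap another annotated gene, and met-6 was above WT with 3-AT, by 1.80, when its first transcript alone was used, so both are uncertain.

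**Figure D2:**
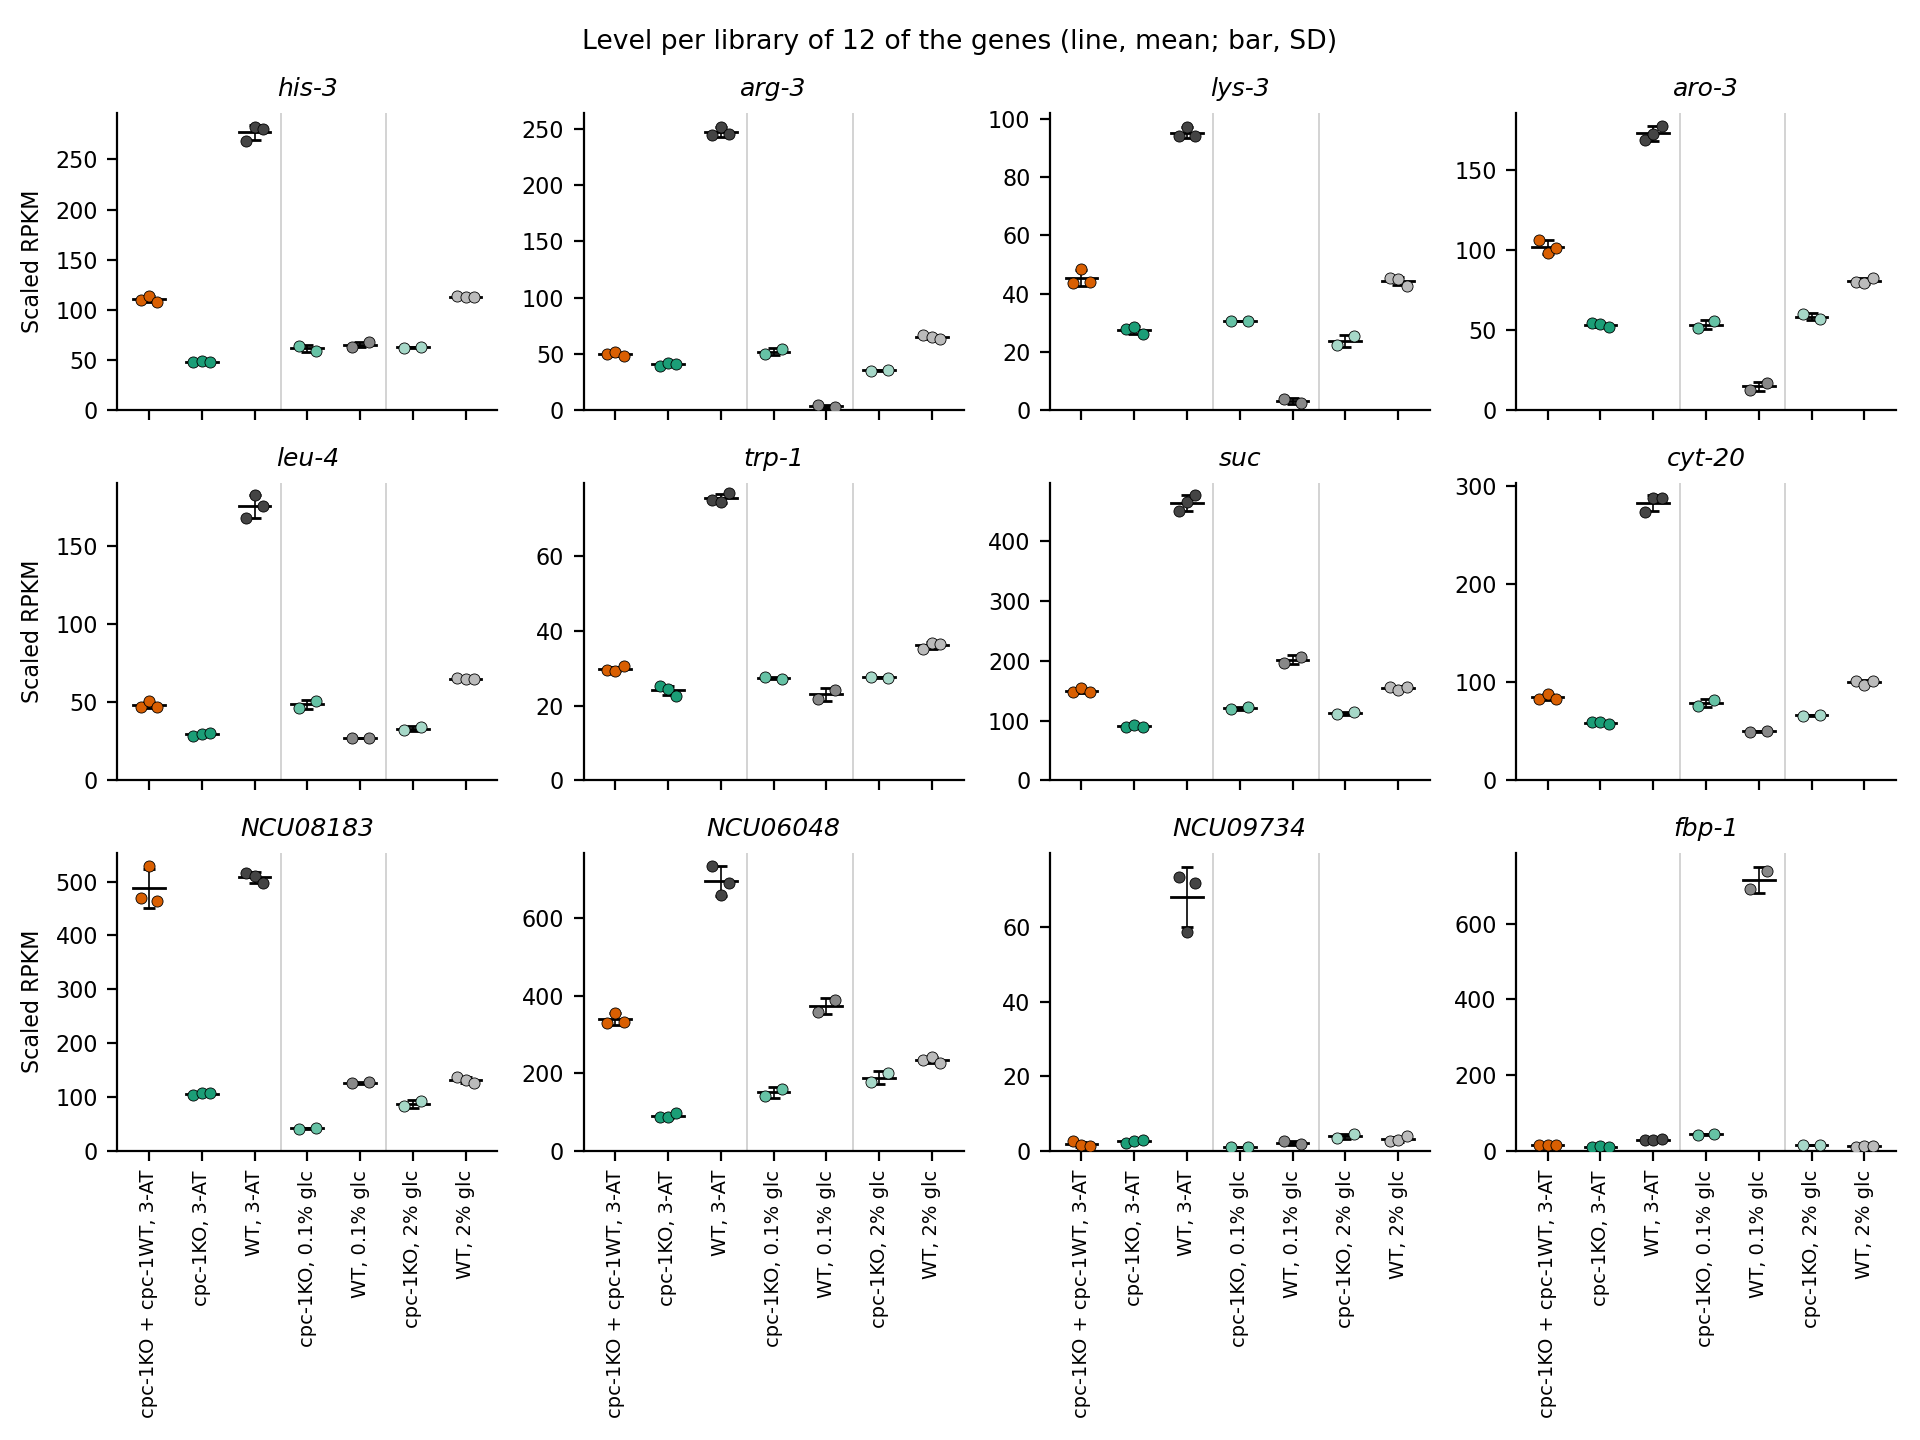
Scaled RPKM (vertical axes, from 0) of 12 of the 98 genes in every library (points) of the 7 groups (glc, glucose), with the group mean (line) and SD (bar). In the 8 panels from his-3 to cyt-20 the WT libraries with 3-AT are the highest and the cpc-1KO + cpc-1WT libraries lie above cpc-1KO on average, while NCU08183 reaches the WT level in cpc-1KO + cpc-1WT, NCU09734 averages 1.74 there and fbp-1 is highest in WT in 0.1% glucose.

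Outside amino acid synthesis the members with symbols included 2 purine genes. ad-4, the adenylosuccinate lyase, had 166, 149 and 172 in cpc-1KO + cpc-1WT, 81.7, 80.1 and 74.8 in cpc-1KO and 258, 247 and 257 in WT with 3-AT, and rose by 1.03 ± 0.07 (SE, limma adjusted p = 2.2e-05) against cpc-1KO. ad-3A had 93.5, 103 and 93.1 in cpc-1KO + cpc-1WT, 54.5, 63.9 and 59.97 in cpc-1KO and 368, 328 and 354 in WT and rose by 0.69 ± 0.08 (SE, limma adjusted p = 4.9e-04). The transgene strain covered 47.8% of the distance between cpc-1KO and WT for ad-4 and 12.8% for ad-3A.

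A pair of further enzymes were among the 10 highest in WT with 3-AT. suc, the pyruvate carboxylase that feeds the citric acid cycle, had 148, 154 and 148 in cpc-1KO + cpc-1WT, 88.9, 92.8 and 88.6 in cpc-1KO and 450.3, 465 and 477 in WT with 3-AT. cyt-20, a valyl-tRNA synthetase, had 82.5, 88.1 and 82.9 in cpc-1KO + cpc-1WT, 59.5, 59.3 and 57.03 in cpc-1KO and 273, 287 and 288 in WT. In both, the transgene libraries lay above the cpc-1KO ones without overlap, by 0.73 ± 0.05 (SE, limma adjusted p = 2.0e-05) for suc and 0.52 ± 0.05 (SE, limma adjusted p = 1.6e-04) for cyt-20, with means below those of WT without 3-AT (154 for suc and 99.6 for cyt-20). nic-4, a gene of nicotinic acid synthesis, came much closer to WT, with 85.9, 76.3 and 89.6 in cpc-1KO + cpc-1WT, 34.7, 34.1 and 31.3 in cpc-1KO and 106, 94.4 and 107 in WT, or 73.02% of the distance.

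Genes of carbon use were present too. acu-15, a transcription factor of acetate use, had 23.1, 23.2 and 22.1 in cpc-1KO + cpc-1WT, 14.95, 14.5 and 13.98 in cpc-1KO and 87.1, 84.5 and 85.6 in WT with 3-AT. clr-1, a transcription factor for cellulose breakdown genes, had 11.4, 10.2 and 10.01 in cpc-1KO + cpc-1WT, 6.51, 5.81 and 6.67 in cpc-1KO and 23.2, 27.2 and 26.6 in WT. fbp-1, the fructose bisphosphatase of gluconeogenesis, had 15.5, 14.5 and 13.9 in cpc-1KO + cpc-1WT, 8.79, 10.8 and 9.23 in cpc-1KO and 27.6, 28.4 and 29.3 in WT. All 3 rose in cpc-1KO + cpc-1WT against cpc-1KO, by 0.62, 0.66 and 0.56 on the log2 scale (limma adjusted p = 4.0e-05, 0.00095 and 0.0015). acw-12, a protein anchored in the cell wall, rose more, by 1.18 ± 0.06 (SE, limma adjusted p = 5.2e-06), with 161, 176 and 157 in cpc-1KO + cpc-1WT, 72.2, 75.1 and 69.1 in cpc-1KO and 330.2, 339 and 343 in WT.

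Over all members, the transgene strain was compared with the deletion strain with 3-AT, a test of libraries of which the 3 transgene ones played no part in the selection but the 3 cpc-1KO ones did, as low values. Of 97 members with a value in all libraries, 68 were higher in cpc-1KO + cpc-1WT and 5 were lower at a limma adjusted p under 0.05 over all genes (Benjamini-Hochberg), and 24 did not pass. Among all 8688 genes tested, 16.1% were called higher and 13% lower, and among the genes that met the level filter alone 25.0% and 15.8%. The members' median log2 difference was 0.53, against 0 over all genes tested, with a range of -1.70 to 2.19, and 85 of 97 lay above 0. In 71 members every transgene library was above every cpc-1KO library, as in 23.5% of all genes tested. How far the choice of genes low in these cpc-1KO libraries adds to the count was not tested. With values as deposited 79 members were called higher and 2 lower, and with upper-quartile scaling 59 and 7. Over all genes the calls split into 1399 higher and 1128 lower here, 2556 and 392 as deposited, and 1023 and 1992 with upper-quartile scaling.

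The position of the transgene strain was also expressed as a share of the distance between the cpc-1KO and WT means with 3-AT. Both ends of that distance were selected on, which widens it, so the shares are a description. The transgene mean stood at a median of 15.8%, with quartiles of 7.02% and 30.7%. It was at or below the cpc-1KO mean for 12 members, up to 25% of the distance for 53, 25% to 50% for 22, 50% to 100% for 8 and beyond the WT mean for 3. In 67 members all 3 transgene libraries lay above all cpc-1KO and below all WT libraries. The selection set these outer groups apart, so this count too is a description, and the share over all genes was not computed.

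**Figure D3:**
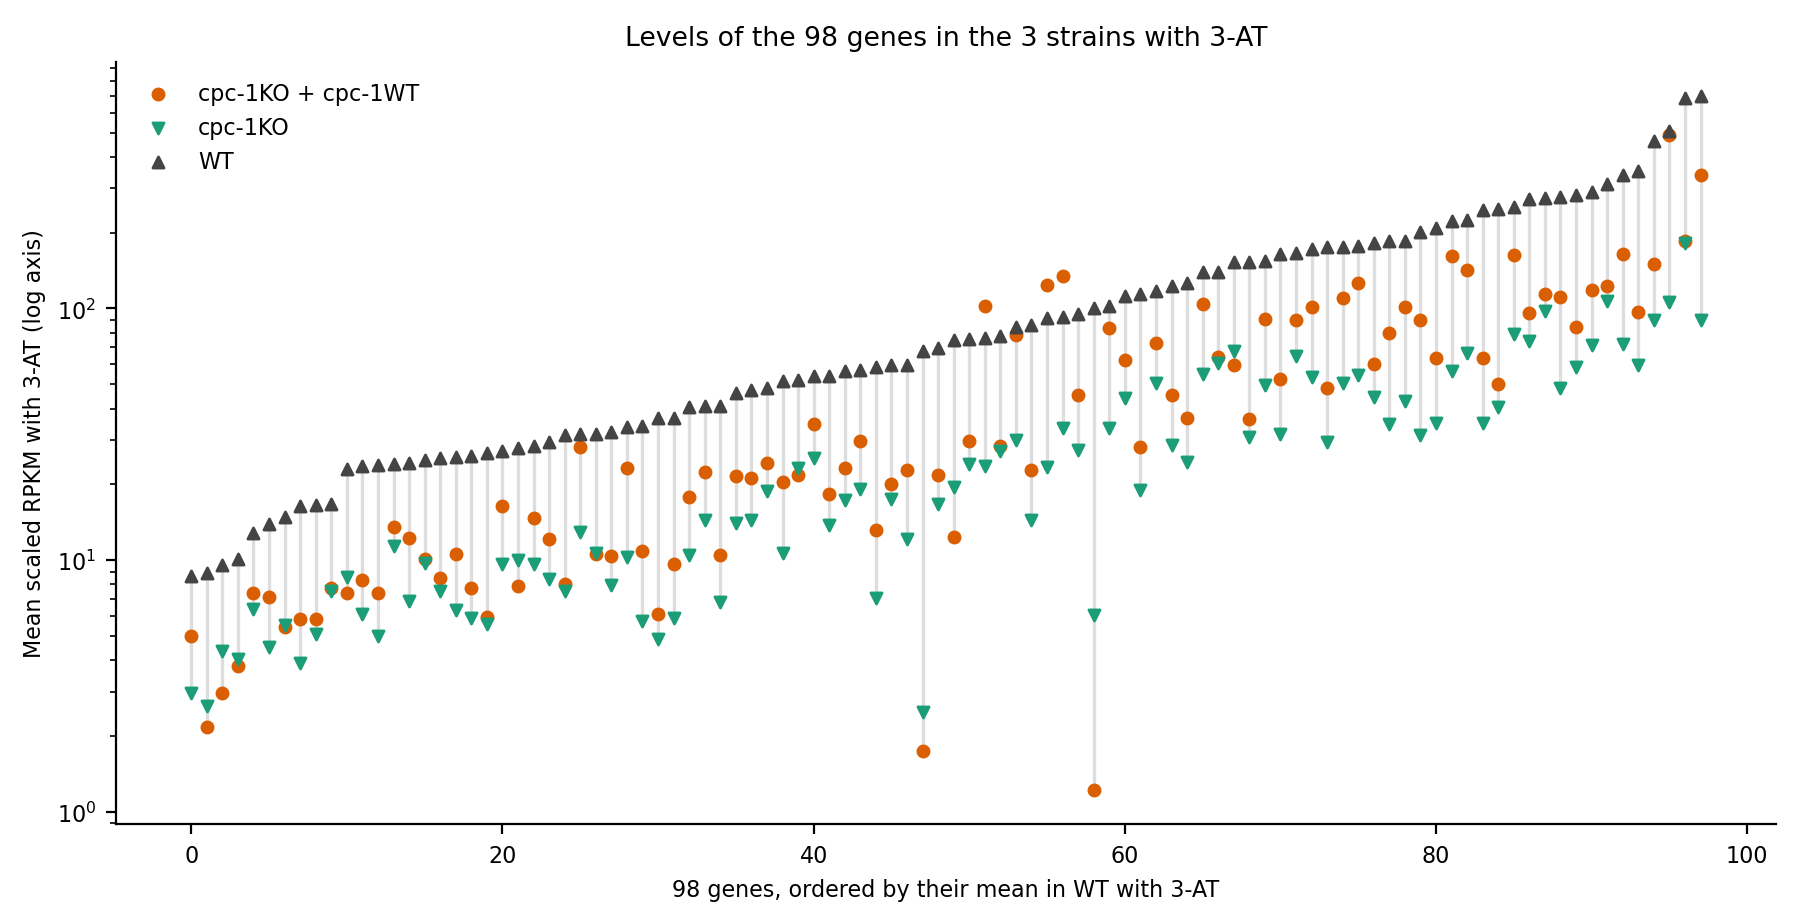
Mean scaled RPKM with 3-AT (log axis) of the 98 genes in cpc-1KO + cpc-1WT (circles), cpc-1KO (triangles down) and WT (triangles up), ordered by the WT mean, with 3 libraries per mean except 2 for NCU07110 in cpc-1KO + cpc-1WT. Circles lie mostly a little above the cpc-1KO marks, 3 lie above the WT marks, and NCU09734 has the lowest cpc-1KO mark although its WT mark is near the middle of the order.

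The largest rises in cpc-1KO + cpc-1WT were in genes without a symbol. NCU08183 had 469, 529 and 464 in cpc-1KO + cpc-1WT, 103, 108 and 107 in cpc-1KO and 516, 511 and 497 in WT with 3-AT. Its transgene libraries reached those of WT, with a log2 difference of 2.19 ± 0.06 (SE, limma adjusted p = 2.3e-07) from cpc-1KO and -0.06 ± 0.06 (SE, limma adjusted p = 0.43) from WT, the second 0.64 with values as deposited. NCU06048, the member highest in WT with 3-AT, had 330.4, 356 and 331 in cpc-1KO + cpc-1WT, 86.2, 86.4 and 96.3 in cpc-1KO and 736, 661 and 692 in WT and rose by 1.91 ± 0.07 (SE, limma adjusted p = 8.9e-07), remaining below every WT library.

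In 3 members the transgene strain was above WT. NCU06557 had 141, 129.5 and 134 in cpc-1KO + cpc-1WT, 32.9, 34.8 and 33.2 in cpc-1KO and 90.8, 91.6 and 94.2 in WT with 3-AT. NCU09241 had 105, 100.2 and 101 in cpc-1KO + cpc-1WT, 24.8, 23.4 and 22.8 in cpc-1KO and 74.97, 74.9 and 78.3 in WT. Both were called higher than in cpc-1KO, by 1.97 ± 0.05 (SE, limma adjusted p = 1.5e-07) and 2.07 ± 0.05 (SE, limma adjusted p = 1.2e-07), and higher than in WT, by 0.54 ± 0.05 (SE, limma adjusted p = 5.1e-05) and 0.42 ± 0.05 (SE, limma adjusted p = 2.1e-04). NCU07110 had 132 and 117 in replicates 2 and 3 of cpc-1KO + cpc-1WT, 21.6, 23.4 and 25.1 in cpc-1KO and 85.6, 92.97 and 95.5 in WT. It has no number in replicate 1 of the transgene strain and so stands outside the tests with 3-AT.

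At the other end, 2 of the members with the strongest induction in WT did not rise with the transgene. NCU09734 had 2.51, 1.39 and 1.33 in cpc-1KO + cpc-1WT, 2.02, 2.64 and 2.84 in cpc-1KO and 73.6, 58.8 and 71.8 in WT with 3-AT, against 2.54, 2.72 and 3.85 in WT without 3-AT. Its WT libraries with 3-AT were more than 10 times any library of the other strains with 3-AT, and the transgene and deletion strains differed by -0.37 ± 0.18 (SE, limma adjusted p = 0.18). NCU00754 had 0.624, 1.69 and 1.35 in cpc-1KO + cpc-1WT, 6.24, 6.14 and 5.77 in cpc-1KO and 95.1, 102 and 104 in WT with 3-AT, against 19.1, 16.98 and 17.99 in WT without it. In NCU00754 every transgene library was below every cpc-1KO library, with a log2 difference of -1.70 ± 0.17 (SE, limma adjusted p = 2.4e-04). Besides NCU00754 and cys-2, the members called lower in cpc-1KO + cpc-1WT were NCU01063 (-0.62), NCU03466 (-0.31) and NCU03643 (-0.44 on the log2 scale, limma adjusted p = 3.1e-04, 0.020 and 0.025). Leaving out 1 library brought these 5 to between 2 and 4, to 3 without replicate 1 and to 2 without replicate 2 of cpc-1KO. With values as deposited they were 2.

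The naming rule also gave locus-tag members that lay high in WT with 3-AT or low in cpc-1KO. NCU05404 had means of 185 in cpc-1KO + cpc-1WT, 183 in cpc-1KO and 684 in WT with 3-AT, the second highest of the members in WT, and its log2 difference between cpc-1KO + cpc-1WT and cpc-1KO was 0.01 ± 0.07 (SE, limma adjusted p = 0.95), or -0.12 with upper-quartile scaling. NCU04020 had means of 162 in cpc-1KO + cpc-1WT, 56.3 in cpc-1KO and 223 in WT, and rose by 1.51 ± 0.06 (SE, limma adjusted p = 1.3e-06) against cpc-1KO. After NCU09734 and NCU00754, the lowest ratios of cpc-1KO to WT with 3-AT were 0.121 for NCU09732, 0.129 for NCU06048 and 0.132 for NCU01057. NCU09732 had 13.5, 14.6 and 11.4 in cpc-1KO + cpc-1WT, 7.15, 7.996 and 6.07 in cpc-1KO and 53.7, 60.7 and 60.6 in WT with 3-AT, and NCU01057 had 5.20, 6.23 and 6.87 in cpc-1KO + cpc-1WT, 4.85, 4.44 and 5.23 in cpc-1KO and 37.1, 33.6 and 38.9 in WT. The log2 differences between cpc-1KO + cpc-1WT and cpc-1KO were 0.81 ± 0.12 (SE, limma adjusted p = 0.0017) for NCU09732 and 0.28 ± 0.10 (SE, limma adjusted p = 0.085) for NCU01057. Single libraries far from their group were rare: 9 members had a library under 0.5 of the next in its group, among them NCU08868, where replicate 2 of WT with 3-AT had 7.44 and the other replicates 31.7 and 32.4. In the 97 members other than NCU08868 every WT library with 3-AT lay above every other WT and cpc-1KO library in 2% glucose. The selection used these same groups, so that count is a description.

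Against WT with 3-AT, 89 of 97 members were lower in cpc-1KO + cpc-1WT and 2 were higher, with 25.2% and 24.4% of all genes tested called in those directions. Among the genes that met the level filter alone the shares were 32.5% and 33.7%. The WT libraries of this comparison were the high side of the selection, so the count describes how far the transgene strain stayed from them and adds no independent evidence. The members' median log2 difference was -1.29, against -0.01 over all genes tested, and 67 of the 97 were over 2 times lower. For that last count the share over all genes was not computed. With values as deposited, which bring the median of all genes to 0.47, 68 members were lower and 9 higher, and all genes split into 4718 higher and 736 lower, against 2124 and 2191 here. Of the members not lower, NCU07926 (-0.10) and NCU06112 (-0.16 on the log2 scale) were nearest to WT beside NCU08183, and all 3 turned to 0.60, 0.52 and 0.64 with values as deposited.

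In 0.1% glucose, where no 3-AT was given and the medium held arginine, the deletion strain was compared with WT in libraries that entered the selection only through the factors and the level filter. Of the 98 members, 31 were higher in cpc-1KO and 54 were lower at a limma adjusted p under 0.05, while 21.5% of all 9013 genes tested were called higher and 26.8% lower. The members' log2 differences ran from -4.85 to 3.62 with a median of -0.41, against -0.03 over all genes tested. For 10 members the level filter was met only through the 0.1% glucose libraries, and all 10 were lower in cpc-1KO. Without them the counts were 31 higher and 44 lower of 88, with a median of -0.21. Among the genes that met the level filter alone, 33.0% were called higher and 36.2% lower.

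Higher and lower members also differed in how WT itself compared between media. All 31 members that were higher in cpc-1KO had a lower mean in WT in 0.1% glucose than in WT in 2% glucose, with a median ratio of 0.423, whereas 37 of the 54 that were lower in cpc-1KO had a higher mean in WT in 0.1% glucose, with a median ratio of 1.84. All 10 members that met the level filter through these libraries are among the 37, and without them it was 27 of 44 with a median ratio of 1.38. In cpc-1KO the same ratio of 0.1% to 2% glucose had medians of 1.13 for the 31 members and 1.08 for the 54, or 0.836 for the 44. The WT libraries in 0.1% glucose stand in both the call and the ratio, so this is a description. The sum of the 5 conidiation markers other than eas was 60.7 to 61.8 in cpc-1KO and 283.6 to 283.7 in WT in 0.1% glucose, with con-6 at 4.25 and 5.28 in cpc-1KO and 54.2 and 44.1 in WT, and their part in the difference was not tested.

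Listed amino acid synthesis genes, matched by symbol, made up 8 of the 31 members higher in cpc-1KO and 0 of the 54 lower ones. Only 11 of the 31 and 4 of the 54 have a symbol, so members known by locus tag could not be counted. arg-3 had 49.98 and 54.2 in cpc-1KO and 4.21 and 2.58 in WT in 0.1% glucose, a log2 difference of 3.62 ± 0.13 (SE, limma adjusted p = 2.6e-09), the largest among members. lys-3 had means of 30.6 in cpc-1KO and 3.17 in WT, higher by 2.94 ± 0.12 (SE, limma adjusted p = 6.9e-09). aro-3 had 51.5 and 55.4 in cpc-1KO and 12.8 and 16.8 in WT, higher by 1.80 ± 0.10 (SE, limma adjusted p = 5.7e-08). In all 3 the cpc-1KO libraries in 0.1% glucose were well above both WT libraries, and the WT libraries in 0.1% glucose were the lowest of all 18.

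The other called amino acid members were cys-2, leu-4, met-6, arg-6 and trp-1 (limma adjusted p between 4.4e-09 and 0.0077). cys-2 had 68.6 and 71.00 in cpc-1KO and 27.6 and 27.8 in WT. The log2 differences of the next 4 were 0.82, 0.73, 0.55 and 0.24. his-3 had 64.2 and 58.97 in cpc-1KO and 63.4 and 67.5 in WT in 0.1% glucose. These his-3 values overlapped, and the log2 difference of -0.09 ± 0.05 (SE, limma adjusted p = 0.22) turned to 0.055 with upper-quartile scaling. pro-3, at 0.06, and aro-6 did not pass the test. aro-6 had 70.8 and 66.7 in cpc-1KO and 26.6 and 35.5 in WT, and its spread in the fit holds the low cpc-1KO library with 3-AT. Members without a symbol were also in this set, led by NCU08685, with 56.4 and 55.8 in cpc-1KO and 13.3 and 12.6 in WT, and NCU04579, with 136 and 135 in cpc-1KO and 32.2 and 34.4 in WT. ad-4 was called higher by 1.46 ± 0.33 (SE, limma adjusted p = 0.0035), although its WT libraries were far apart: 151 and 154 in cpc-1KO and 32.7 and 91.6 in WT. In a fit of these 4 libraries alone its limma adjusted p was 0.147.

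**Figure D4:**
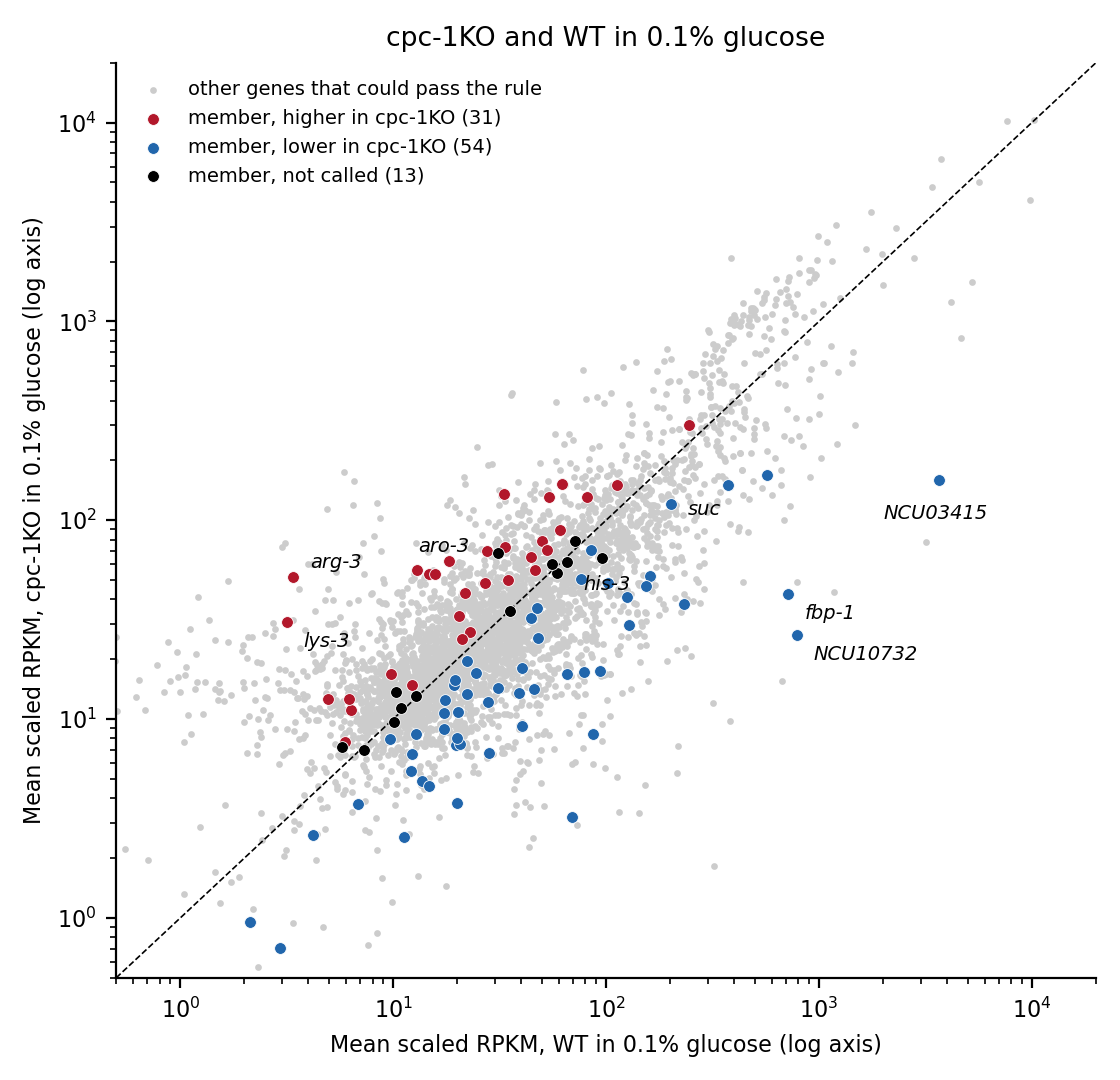
Mean scaled RPKM in 0.1% glucose in cpc-1KO (vertical, log axis) and WT (horizontal, log axis), 2 libraries each, for the 98 members by their limma call and for the other genes that met the level filter (grey), with the dashed line at equality. The 31 members higher in cpc-1KO lie above the line, with arg-3 and lys-3 farthest from it, and the 54 lower ones lie below it, with fbp-1, NCU10732 and NCU03415 at WT means of 716, 786 and 3651. NCU03415 met the level filter only through these libraries.

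Among the members lower in cpc-1KO in 0.1% glucose, 5 had log2 differences below -3: NCU10732, NCU03415, NCU03372, fbp-1 and NCU03643. Of these, NCU03415, NCU03372 and NCU03643 met the level filter only through the libraries in which they were high, with means of 8.25, 4.14 and 5.95 over the 11 other WT and cpc-1KO libraries, so their place here follows from the filter. fbp-1 had 40.9 and 44.1 in cpc-1KO and 692 and 739.9 in WT in 0.1% glucose, against 10.7, 12.8 and 12.6 in WT in 2% glucose and 27.6, 28.4 and 29.3 in WT with 3-AT. The difference between cpc-1KO and WT in 0.1% glucose was -4.04 ± 0.10 (SE, limma adjusted p = 1.6e-10), and the cpc-1KO libraries of fbp-1 were themselves above those of cpc-1KO in 2% glucose (13.5 and 13.5). NCU10732 had 27.1 and 25.6 in cpc-1KO and 797 and 774 in WT in 0.1% glucose, the lowest log2 difference of the members at -4.85 ± 0.07 (SE, limma adjusted p = 3.3e-12).

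NCU03415 had 156 and 163 in cpc-1KO and 3651 ± 65.1 on average in WT in 0.1% glucose (SD, n = 2). acu-15 had means of 46.8 in cpc-1KO and 154 in WT, lower by a log2 difference of -1.70 ± 0.06 (SE, limma adjusted p = 2.0e-09). clr-1 had 18.6 and 17.5 in cpc-1KO and 45.9 and 35.1 in WT, and suc had means of 121 in cpc-1KO and 201 in WT. Both were lower in cpc-1KO, clr-1 by a log2 difference of -1.11 ± 0.12 (SE, limma adjusted p = 1.6e-05) and suc by -0.73 ± 0.05 (SE, limma adjusted p = 4.5e-07). The lower set held 4 genes with a symbol, fbp-1, acu-15, clr-1 and suc. NCU08183, at the WT level in cpc-1KO + cpc-1WT with 3-AT, had 40.4 and 41.8 in cpc-1KO and 125 and 126 in WT in 0.1% glucose, a log2 difference of -1.59 ± 0.06 (SE, limma adjusted p = 5.8e-09). The call of NCU06048, -1.31 ± 0.09 (SE, limma adjusted p = 4.7e-07), turned to 1.87 when its first transcript alone was used and is uncertain.

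The 11 amino acid members were a small share of the listed amino acid synthesis genes. Members known only by locus tag could not be matched to the lists. Of 82 symbols on the lists, 52 were found in the table and 47 met the level filter. Of the 36 of these that were not members, 28 were under 2 times as high in WT with 3-AT as without it. Another 8 were induced at least 2 times in WT, and 7 of those 8 had at most 0.5 of the WT level in cpc-1KO without 3-AT. arg-10, argininosuccinate lyase, was one of them, at 38.4 in cpc-1KO and 739.8 in WT with 3-AT, and at 33.4 in cpc-1KO and 224 in WT without it (means). arg-12, the ornithine carbamoyltransferase, was another, with means of 29.8 in cpc-1KO and 421 in WT with 3-AT, and 28.3 in cpc-1KO and 139 in WT without it. These genes showed the difference between the strains before 3-AT was added, which the selection set aside. Of 14 listed CPC-1 targets, 10 were found in the table, 8 met the level filter and 1, his-3, was among the 98. Of these 8, 7 had at most 0.5 of the WT level in cpc-1KO with 3-AT, and 4 were induced at least 2 times in WT. Of the 10 found, 9 were called higher and 0 lower in cpc-1KO + cpc-1WT than in cpc-1KO with 3-AT. Among all genes tested, 16.1% were called higher and 13% lower in that comparison.

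Over the 41 listed amino acid genes outside the 98, 24 were higher and 4 lower in cpc-1KO + cpc-1WT than in cpc-1KO with 3-AT, and 26 were higher and 4 lower in cpc-1KO than in WT in 0.1% glucose. Of all genes tested, 16.1% were called higher and 13% lower in the first comparison, and 21.5% and 26.8% in the second. Among the genes that met the level filter alone the shares were 25.0% and 15.8%, and 33.0% and 36.2%. The 11 members had 8 higher and 1 lower in the first comparison and 8 higher and 0 lower in the second. The median log2 differences were 0.68 for the 11 members and 0.49 for the other 41 in the first, and 0.82 and 0.70 in the second, and none of them changed sign with values as deposited or with upper-quartile scaling. All 98 members were selected as low in the cpc-1KO libraries of the first comparison. How far this adds to their counts and medians there was not tested. The 87 members not matched to the lists, 78 of them known only by locus tag, had a median of 0.53 in the first over 86 tested. In the second their median was -0.56, with 23 higher and 54 lower. Of these 54, 10 met the level filter only through the 0.1% glucose libraries in which they were high. Without those 10, 44 were lower. None of the 3 listed amino acid permeases was a member, nor was cpc-1 itself or the cross-pathway control kinase gene cpc-3, which had means of 7.46 in cpc-1KO and 48.6 in WT with 3-AT and 8.43 in cpc-1KO and 25.04 in WT without it.

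In the NC12 annotation the members were spread over all 7 chromosomes, and 2 pairs were next to each other. NCU03427 and NCU03426 overlap, so their reads may be shared, and their ratios of WT with 3-AT to WT without it were 2.69 and 2.90. NCU04255 and NCU04256 are neighbours that do not overlap, with ratios of 2.26 and 2.01. In 0.1% glucose both members of each pair were called lower in cpc-1KO, with ratios of cpc-1KO to WT of 0.363, 0.378, 0.308 and 0.346 in the order named, though NCU03427 is one of the 10 that met the level filter through those libraries. In all, 27 members overlap another annotated gene, arg-3, pro-3, met-6, ad-3A, acw-12 and nic-4 included, and 20 have more than 1 transcript. Among the 56 tested members with neither feature, 37 were higher and 5 lower in cpc-1KO + cpc-1WT than in cpc-1KO with 3-AT. Of all genes tested, 16.1% and 13% were called in those directions. The cpc-1KO libraries with 3-AT took part in the selection, as low values.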

How the data were processed

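RNA from mycelia was sequenced in 18 libraries, and the authors deposited 1 RPKM value per transcript and library. TopHat2 and Cufflinks are named in the submitters' processing notes, with no version, and the genome build, annotation and strand setting are not given in the sources used here. The columns of the transgene libraries carry the name GCN4WT where the label says cpc-1WT. Those files also lack a number for 124 genes, so a difference in processing and the strain cannot be told apart. RPKM values were summed over transcripts to 9730 genes, leaving out 7 entries with remarks, and each library was divided by its median ratio to the geometric mean of the 15 WT and cpc-1KO libraries. Differences were tested with limma 3.58.1 in R 4.3.3 on log2(scaled RPKM + 1), which understates changes of low genes, with Benjamini-Hochberg adjustment over all genes. The 9 libraries with 3-AT formed 1 fit (8688 genes) and the 15 WT and cpc-1KO libraries another (9013 genes), keeping genes above 0 in at least 1 library. The step was tested on simulated data.

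The members and gene lists were chosen with earlier results of these data known. Named genes were cpc-1, members with listed symbols, the 10 members lowest in cpc-1KO against WT with 3-AT, the 10 most induced in WT, the 10 highest in WT with 3-AT, the 5 at each end of each tested comparison, adjacent members and those nearest a limit. The members nic-4, clr-1, acu-15 and NCU07110 were added after their values were seen. Names came from the RefSeq table of NC12, which matched 9729 of the 9730 genes, and no sequence or position is printed because no genome was given. A list of genes by protein product could not be applied. Alternatives were no scaling, upper-quartile scaling, a pseudocount of 0.1, a filter on low values, other sets of libraries, a replicate block, the first transcript alone and leaving out each library. With RPKM alone, precision rests on the number of libraries, and no counting interval is given.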

Additional observations from a re-analysis of the deposited data

How the results depend on the processing

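The number of members was 98, and 61 with values as deposited (38 shared with the 98), 161 with a mean of at least 1 (98 shared), 102 with upper-quartile scaling, 87 with the first transcript, and 96 to 106 with each of 11 libraries left out, among which 78 of the 98 were always kept. With genes at 0 in a library allowed, a choice made after seeing the data, it was 113. Among members, counts of calls over all of them kept within 1.5 times of those reported except for the members lower in cpc-1KO + cpc-1WT than in cpc-1KO (5), which were 2 with values as deposited, 3 with all 18 libraries fitted, 2 with the replicate block and 2 to 4 with 1 library left out, and the members higher than in WT with 3-AT (2), which were 9 with values as deposited. Over all genes the totals called kept within 1.5 times, but the directions with 3-AT did not: against cpc-1KO, 1399 higher and 1128 lower became 2556 and 392 as deposited and 1023 and 1992 with upper-quartile scaling, and against WT, 2124 and 2191 became 4718 and 736 as deposited. The 4 listed amino acid genes outside the 98 that were lower in cpc-1KO + cpc-1WT than in cpc-1KO were 2 as deposited. Restricted after seeing the data to members with 1 transcript and no overlap, the calls were 42, 52 and 48 in the 3 comparisons, since fewer members were tested, and 75 in 0.1% glucose without the 10 members that met the level filter through those libraries.

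Replicate numbers were not taken as pairs: correlations of same-numbered libraries were -0.06 to 0.08 for cpc-1KO + cpc-1WT and cpc-1KO, 0.08 to 0.11 for cpc-1KO + cpc-1WT and WT, where every library correlated best with its own number, and 0.01 in 0.1% glucose. With the replicate block, members called were 67 (65 higher, 2 lower), 90 and 84 in the 3 comparisons, against 73, 91 and 85.

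For single genes, 2115 of 2240 alternatives kept direction and side of the threshold and 21 changed sign. In cpc-1KO + cpc-1WT against cpc-1KO with 3-AT, cys-2 was 0.051 and NCU02702 0.17 with values as deposited, NCU05404 -0.12 with upper-quartile scaling and NCU04383 -0.37 with its first transcript. With 1 library left out, NCU05404 ran between -0.044 and 0.085 and NCU02702 between -0.12 and 0.023. Against WT with 3-AT and as deposited, ad-4 was 0.061, arg-6 0.017, NCU08183 0.64, NCU04255 0.072, NCU04020 0.25, NCU06112 0.52 and NCU07926 0.60, and met-6 was 1.80 with its first transcript. In 0.1% glucose, his-3 was 0.055 with upper-quartile scaling and NCU06048 1.87 with its first transcript, and with 1 library left out NCU02307 ran between -0.26 and 0.37 and NCU03466 between -0.68 and 0.40. As deposited, the median of all genes was 0.16 and 0.47 in the comparisons with 3-AT, and the cause was not tested.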
